A study of Mus musculus with 6 samples.

Results

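The potassium channel genes of the mouse prefrontal cortex were read in polyadenylated RNA from 6 libraries, 3 from *Pla2g4e* knockout mice (KO) and 3 from wild-type mice (WT). The genes were those whose symbol begins with Kcn, goes on with letters only and ends in a number, and that had at least 10 fragments summed over the 6 libraries. *Kcnj13*, whose symbol has this form, was left out by the rule and is in none of the counts below. Of the 56923 genes listed, 91 symbols matched and 82 reached that minimum. KO mice carried the constitutive tm2a allele of *Pla2g4e* in the strain C57BL/6N-A tm1Brd, in which a LacZ trapping cassette is predicted to abolish the normal transcript by splicing, and WT mice carried no such allele. *Pla2g4e* encodes a calcium-dependent enzyme of the cytosolic phospholipase A2 family that makes N-acylphosphatidylethanolamines. The labels give neither age nor sex, the groups share no other treatment, and nothing in the labels says that the samples of a group came from separate animals, so p-values measure only the spread between these samples.

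Potassium channels let potassium ions leave or enter a cell along their gradient and so set the resting potential, the shape of the action potential and the rate of firing. Voltage-gated (Kv) channels open on depolarization, inward rectifiers (Kir) and two-pore-domain (K2P) channels hold the resting potential, and calcium- or sodium-activated channels follow the ions that enter during activity. Silent Kv subunits form no channel on their own and change the gating of the Kv2 subunits they join. The Kv beta subunits, the KChIPs (potassium channel interacting proteins), the KCNE peptides and the BK beta subunits are auxiliary proteins without a pore.

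Library totals were 11792463 to 14594230 fragments, of which the 82 genes took 0.631% to 0.664%, and 80 to 82 of them had a fragment in any one library. Libraries numbered 1 in both groups stood apart from the rest: *Xist* was at 1386 CPM (fragments per 1000000, after scaling) in KO replicate 1 and at 969 CPM in WT replicate 1 and was at most 0.245 CPM elsewhere. The genes *Uty*, *Kdm5d*, *Ddx3y* and *Eif2s3y* of the Y chromosome were at most at 0.157 CPM in these libraries and at 19.8 to 67.9 CPM in the others. Neuronal, excitatory and astrocyte markers were detected in all 6 libraries with 10 of 10, 6 of 6 and 10 of 10 genes of these lists tested. Markers of striatal neurons, which a cortical dissection should lack, had summed levels of 340, 444 and 341 CPM in the KO libraries and of 251, 258 and 425 CPM in the WT libraries. In bulk tissue, fewer cells of a type and less RNA per cell cannot be told apart. *Pla2g4e*, the targeted gene, was at 5.94, 8.12 and 7.96 CPM in KO replicates 1 to 3 and at 7.83, 11.3 and 13.2 CPM in the libraries labelled WT replicates 1 to 3. It was lower in KO by limma-voom (log2 fold change -0.55, SE 0.205, unadjusted p = 0.0205, adjusted p = 0.635), but the groups overlapped, since the library labelled WT replicate 1 lay below 2 of the KO libraries. KO and WT below stand for the labels, and every direction given rests on them.

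The pore of every potassium channel is lined by a short loop, the selectivity filter, whose usual order of residues is threonine or serine, a residue with a branched side chain, glycine, tyrosine or phenylalanine, and glycine. Runs of codons that can encode this order were searched in the coding sequences of the genes (GENCODE M21, GRCm38) to show how alike the filters of the classes are. The search took an ACN, TCN or AGT or AGC codon, then any codon with T in the middle, GGN, a codon that starts with T, and GGN, read in frame and on the coding strand only. Of the 70 pore-forming members, 68 held such a run, none of the 12 auxiliary members did, and 1.92% of the 21584 genes with a coding sequence did. For abundant members of most classes, the run is shown in capitals with the codons beside it.
Kcna2, Kv1: atgacaACTGTAGGCTATGGAgacatggtt
Kcnc4, Kv3: atgacaACGCTTGGCTATGGGgacatgtat
Kcnd2, Kv4: atgacaACACTGGGGTATGGCgacatggta
Kcnf1, silent Kv: atgaccACAGTGGGCTATGGTgacatctac
Kcnq3, KCNQ: ctggccACCATTGGTTATGGAgacaagaca
Kcnh3, ELK: ctcaccAGTGTGGGCTTCGGCaacgtgtcc
Kcnt1, sodium-activated: ttctcaACTGTGGGCTTCGGTgatgtgacg
Kcnma1, BK: atgtctACAGTGGGTTATGGGgacgtttat
Kcnj10, Kir: cagaccACCATCGGCTATGGCttccgctac
Kcnk9, K2P, the first run: atcacaACTATCGGATATGGAcatgctgca
Kcnk9, K2P, the second run: ttgactACTATAGGGTTCGGCgattttgtg
The Kv, KCNQ, EAG, ERG, ELK and Kir members held exactly 1 run each, as did 7 of the 8 calcium- and sodium-activated members, while *Kcnn2* held 2. Among the 12 K2P genes, whose proteins carry a pair of pore loops, 9 held 2 runs, *Kcnk6* held 1, and in *Kcnk1* and *Kcnk7* these letters were not found. The silent subunit *Kcnf1* held the same kind of run as the Kv subunits that conduct.

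Levels were compared between genes as FPKM, CPM per kilobase of exon. With the summed exon length of the files, the summed level was highest for the 12 inward rectifiers, at 182 ± 6.33 FPKM (SD over 6 libraries), and for the 7 Kv beta subunits and KChIPs, at 165 ± 7.20 FPKM. With the length of the longest coding transcript in its place, the order of these 2 classes turned, to 195 and 268 FPKM. A group of 7 classes followed, which spread from 74.7 FPKM (Kv1) to 114 FPKM (KCNQ) with transcript length. With exon length, silent Kv subunits summed to 81.6 ± 5.19, K2P subunits to 80.6 ± 1.96, the EAG, ERG and ELK subunits to 80.5 ± 3.75 and Kv3 to 78.5 ± 3.10 FPKM, and KCNQ subunits to 71.0 ± 3.58, Kv1 to 71.0 ± 4.25 and the calcium- and sodium-activated subunits to 68.0 ± 3.05 FPKM. Neighbours in this order overlapped between libraries, as did the 2 highest classes. Kv2 summed to 37.3 ± 1.75 and Kv4 to 32.4 ± 2.30 FPKM, and the KCNE and BK beta subunits came last, at 13.9 ± 1.28 FPKM, below all other classes in every library. Of the 82 members, 33 had a mean of at least 10 FPKM, 36 lay from 1 to 10 and 13 lay under 1, and the 10 highest members held 40.4% of the summed level.

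**Figure D1:**
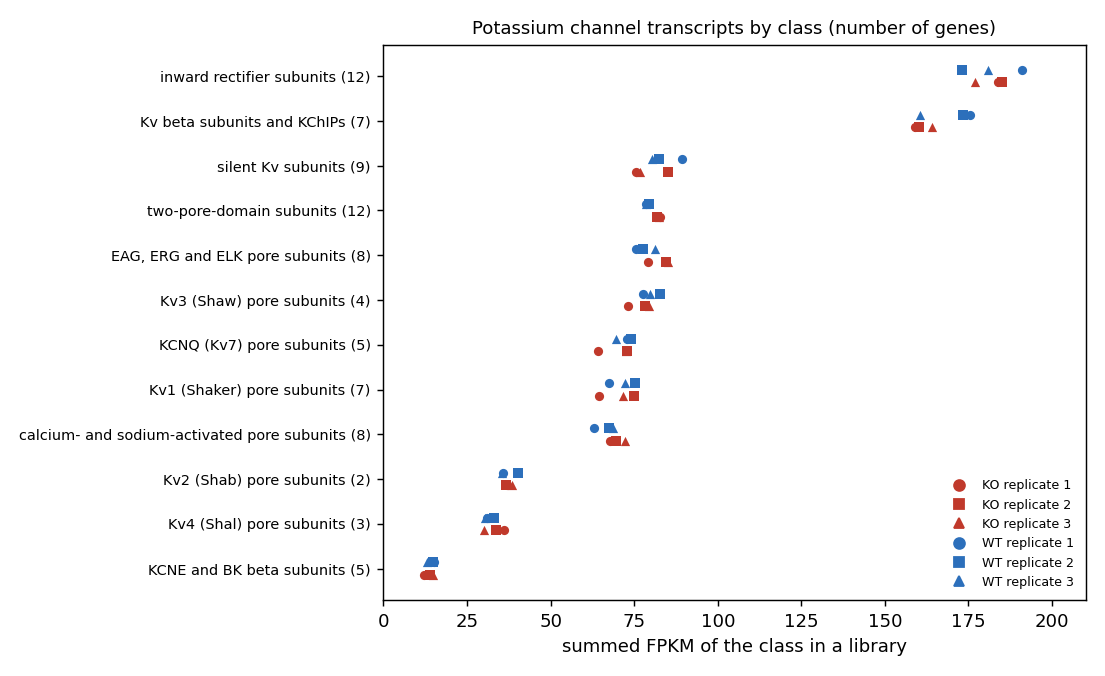
Summed level of each channel class in FPKM (horizontal axis, linear), with 1 point for each library, KO in red and WT in blue, and the number of members of a class in parentheses. Inward rectifiers and the Kv beta and KChIP class lie at 159 to 191 FPKM, and the KCNE and BK beta class lies at 12 to 15.2 FPKM.

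Among the Kv1 (Shaker) subunits, which form low-threshold delayed rectifiers of axons, *Kcna2* was highest, at 26.1 FPKM over the 6 libraries. *Kcna2* held 34.8% to 38.1% of the class in each library, *Kcna6* had 18.6 and *Kcna1* 14 FPKM. *Kcna3* (6.08 FPKM), *Kcna4*, the A-type member (4.46), and *Kcna5* (1.64) were lower, and *Kcna10* was near 0, at 0.0840 FPKM. The Kv1 class was thus spread over several genes. In the Kv2 (Shab) class, the delayed rectifiers of the soma, *Kcnb2* was at 3.32 FPKM.

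The Kv3 (Shaw) subunits, which repolarize fast-firing neurons, included several abundant genes. *Kcnc1* was at 21.2, *Kcnc4* at 18.4 and *Kcnc2* at 15.3 FPKM. *Kcnc1* varied by 3.52% (coefficient of variation over 6 libraries) and *Kcnc2* by 4.45%. Of the Kv4 (Shal) subunits, the A-type channels of dendrites, *Kcnd2* (17.6 FPKM) and *Kcnd3* (12.1) held most of the class and *Kcnd1* was at 2.63 FPKM. The Kv4 sum lay below that of the KChIPs and Kv beta subunits that accompany Kv channels. The calcium-binding KChIPs *Kcnip3* and *Kcnip2* were at 39.0 and 29.2 FPKM, above any Kv4 pore gene, *Kcnip4* was at 15.4 and *Kcnip1* at 3.50 FPKM. *Kcnab2*, a Kv beta subunit related to aldo-keto reductases, was the highest of all 82 members, at 56.2 FPKM, with *Kcnab3* at 15.9 and *Kcnab1* at 6.21 FPKM. With transcript length the order of the latter turned, *Kcnab1* being at 21.4, *Kcnab3* at 18 and *Kcnip4* at 23.3 FPKM. By the same length *Kcnab2* was at 99.9, *Kcnip2* at 44.8 and *Kcnip1* at 9.52 FPKM.

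The silent subunits were led by *Kcnf1*, at 35.1 FPKM, and *Kcnv1*, at 22.8 FPKM. *Kcnf1* lay at 30.9 to 40 FPKM over the libraries. *Kcng1* was at 8.37 FPKM and *Kcns2* at 5.74 FPKM, and the 5 other members lay from 1.21 to 3.89 FPKM. Of the KCNQ subunits, which carry the M current that damps repetitive firing, *Kcnq5* was at 15.5 FPKM and *Kcnq3* at 15, while *Kcnq1*, the cardiac and epithelial member, was at 0.286 FPKM. The ratio of *Kcnq5* to *Kcnq3* was 0.913 to 1.16 over the 6 libraries.

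Among the EAG, ERG and ELK subunits, *Kcnh3* (an ELK channel of the forebrain) was at 33.1 FPKM and held 40.4% to 42.8% of the class. *Kcnh1* was at 13.9 FPKM, and the ERG member *Kcnh7*, at 12.7 FPKM, lay above the ERG member *Kcnh2*, at 7.35 FPKM. The remaining members were *Kcnh4* at 7.25, *Kcnh5* at 4.71, *Kcnh6* at 1.43 and *Kcnh8* at 0.123 FPKM. In the class opened by intracellular ions, the sodium-activated *Kcnt1* (Slack) was at 27.5 FPKM and the BK pore gene *Kcnma1* at 21.1 FPKM. *Kcnma1* was the steadiest member of all, with a coefficient of variation of 1.04%, against a median of 12.4% over the tested members and 12.6% over all tested genes. The sodium-activated *Kcnt2* (Slick) was at 6.11 FPKM and the small-conductance channels *Kcnn2*, *Kcnn1* and *Kcnn3* were at 6.03, 3.29 and 2.82 FPKM, while *Kcnn4*, the channel of blood and epithelial cells, was at 0.0397 FPKM. With transcript length *Kcnn2* was at 12.2 and *Kcnn3* at 10.2 FPKM, above *Kcnt2* at 7.37 and *Kcnn1* at 3.73. By the same length *Kcnh3* was at 51.4 and *Kcnt1* at 44.5 FPKM. Of the BK beta subunits, the neuronal *Kcnmb4* was at 12.3 FPKM (29.9 FPKM with transcript length) and held 85.6% to 90.9% of its class, with *Kcnmb2* at 0.892 and the smooth-muscle *Kcnmb1* at 0.229 FPKM. Among the KCNE peptides only *Kcne4* (0.425 FPKM) and *Kcne3* (0.109 FPKM) reached the minimum of fragments.

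The inward rectifiers combined genes of several cell types. *Kcnj4*, a strong rectifier of forebrain neurons, was at 45.5 FPKM and *Kcnj10*, the main potassium channel of astrocytes, at 38.8 FPKM. The subunits of G-protein-gated (GIRK) channels were led by *Kcnj9*, at 36.4 FPKM, with *Kcnj3* at 27.5, *Kcnj6* at 5.58 and *Kcnj5*, the cardiac member, at 0.0470 FPKM. Of the pore subunits of ATP-sensitive channels, *Kcnj11* (known from neurons and endocrine cells) was at 10.2 FPKM and *Kcnj8* (known from mural cells) at 1.32 FPKM. *Kcnj16*, which joins *Kcnj10* in astrocytes, was at 8.33 FPKM, and the ratio of *Kcnj10* to *Kcnj16* was 3.82 to 5.01. The other strong rectifiers were *Kcnj12* at 4.35, *Kcnj2* at 3.48 and *Kcnj14* at 0.328 FPKM. Of the K2P leak channels, *Kcnk1* was at 32.8 FPKM and *Kcnk9* (TASK-3) at 20.6 FPKM, together most of the class, followed by *Kcnk2* (TREK-1) at 8.48 and *Kcnk3* (TASK-1) at 6.04 FPKM. *Kcnk4*, *Kcnk12*, *Kcnk6*, *Kcnk13* and *Kcnk10* lay from 1.23 to 4.05 FPKM and *Kcnk15*, *Kcnk5* and *Kcnk7* under 0.3. With transcript length *Kcnj9* (40.4 FPKM) lay above *Kcnj10* (38.8), *Kcnj6* rose to 11.7 FPKM, and *Kcnk4*, at 10.3 FPKM, passed *Kcnk3*.

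**Figure D2:**
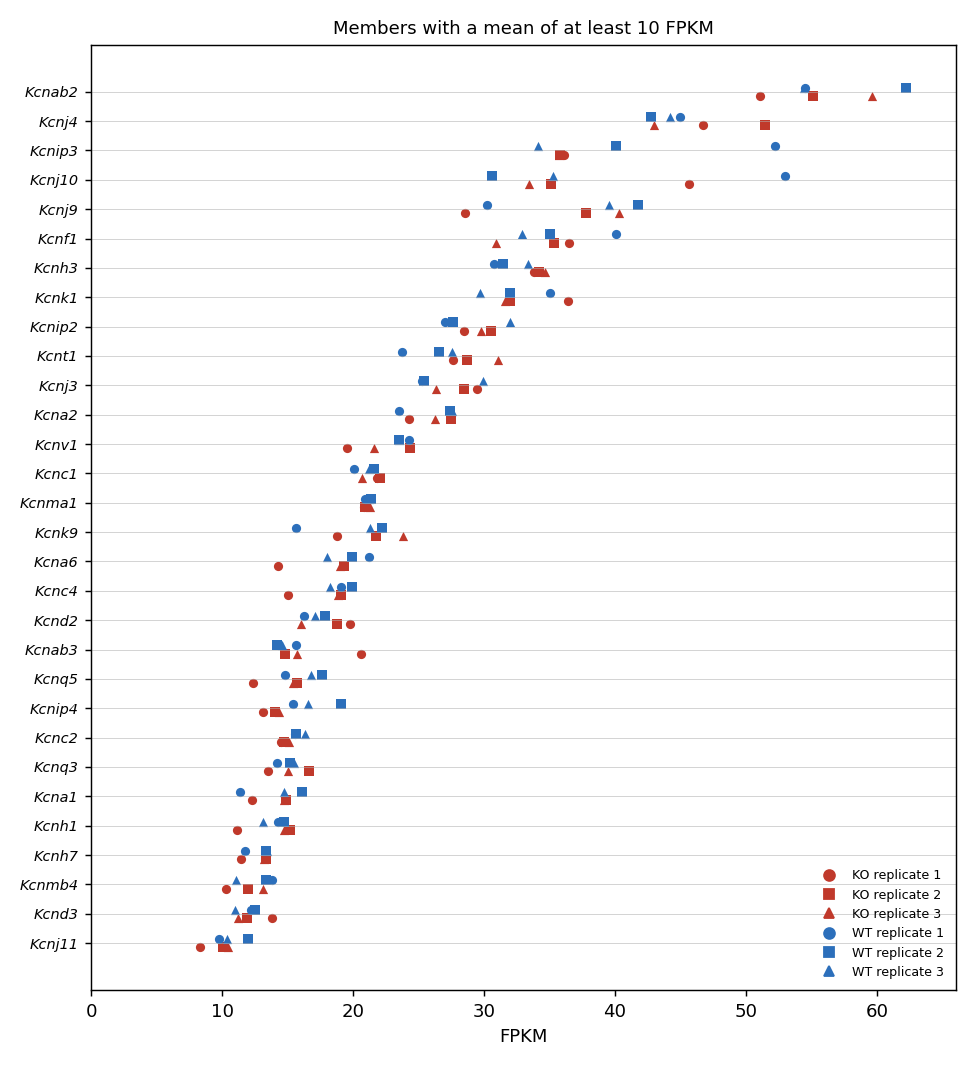
Level in FPKM (horizontal axis, linear) of 30 members with a mean of at least 10 FPKM, with 1 point for each library, KO in red and WT in blue, the marker giving the replicate number. The order runs from *Kcnab2*, at 51.0 to 62.2 FPKM, to *Kcnj11*, at 8.30 to 12 FPKM, and *Kcnj10* and *Kcnj9* show the circles of replicate 1 apart from the rest in opposite directions.

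At the minimum of 10 fragments, *Kcnk7* was just inside with exactly 10, then *Kcna10* with 14, *Kcne3* with 15, *Kcnn4* with 16 and *Kcnj5* with 17. Just outside were *Kcne2*, an auxiliary subunit abundant in choroid plexus, with 7 fragments, *Kcnj15* with 6 and *Kcne1* with 5. *Kcna7* had 2 and *Kcnmb3* 1, and *Kcnk16*, *Kcnj1*, *Kcnv2* and *Kcnk18* had 0 fragments in all 6 libraries. The choroid plexus markers summed to 35.2 CPM in WT replicate 2 and to 5.25 to 6.98 CPM elsewhere, and the 7 fragments of *Kcne2* were 4 in KO replicate 1 and 1 in each WT library.

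To ask whether loss of *Pla2g4e* went with other levels of potassium channel genes, KO was compared with WT by limma-voom over all 19084 genes with at least 6 fragments in at least 1 library. Of the 82 members, 78 passed this filter (all but *Kcna10*, *Kcnn4*, *Kcnk7* and *Kcne3*). No member passed an adjusted p of 0.05, the lowest being 0.635, and 0% of all tested genes did. Unadjusted p-values under 0.05 were found for 3 of 78 members (3.85%), against 7.82% of all tested genes. By direction, 1 member was higher (1.28%, all genes 4.38%) and 2 were lower (2.56%, all genes 3.44%). In other fits the members' share lay above that of all genes, as with the Y-linked covariate given below, so the order of these shares depends on the fit. Markers of cell types also differed between the groups: 9 of 10 neuronal markers (median log2 fold change -0.15, 3 with an unadjusted p under 0.05) and 6 of 6 excitatory markers (median -0.21, 3 with such a p) were below 0, and 9 of 10 oligodendrocyte markers (median 0.19, 1 with such a p) and 10 of 10 astrocyte markers (median 0.06, 0 with such a p) were above 0. Their part in the members' values was not tested. By the other tools, the count of members at an unadjusted p under 0.05 was 2 with edgeR's quasi-likelihood test (2.56%, all tested genes 7.90%), both lower in KO, and 3 with DESeq2 (3.85%, all tested genes 4.73%), all lower in KO. No member passed the adjusted threshold in either, and 1 of all tested genes did in DESeq2.

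In the tested members, 41 had a log2 fold change above 0 and 37 below, with a median of 0.03 against 0.01 over all tested genes. The size of the change, whatever its sign, had a median of 0.113 on the log2 scale against 0.130 over all tested genes. The 95% interval of the fold change lay within a 2-fold change in either direction for 71 of 78 members (91.0%, all tested genes 73.7%) and within 1.5-fold for 60. The 7 members with wider intervals were *Kcng3*, *Kcnh8*, *Kcnj5*, *Kcnk13*, *Kcnk15*, *Kcnk5* and *Kcne4*, all of which had at most 355 fragments in total. Of the 69 tested members with at least 1 FPKM, 67 had an interval within 2-fold. For most members, a change of 2-fold or more between these groups thus lay outside the interval.

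**Figure D3:**
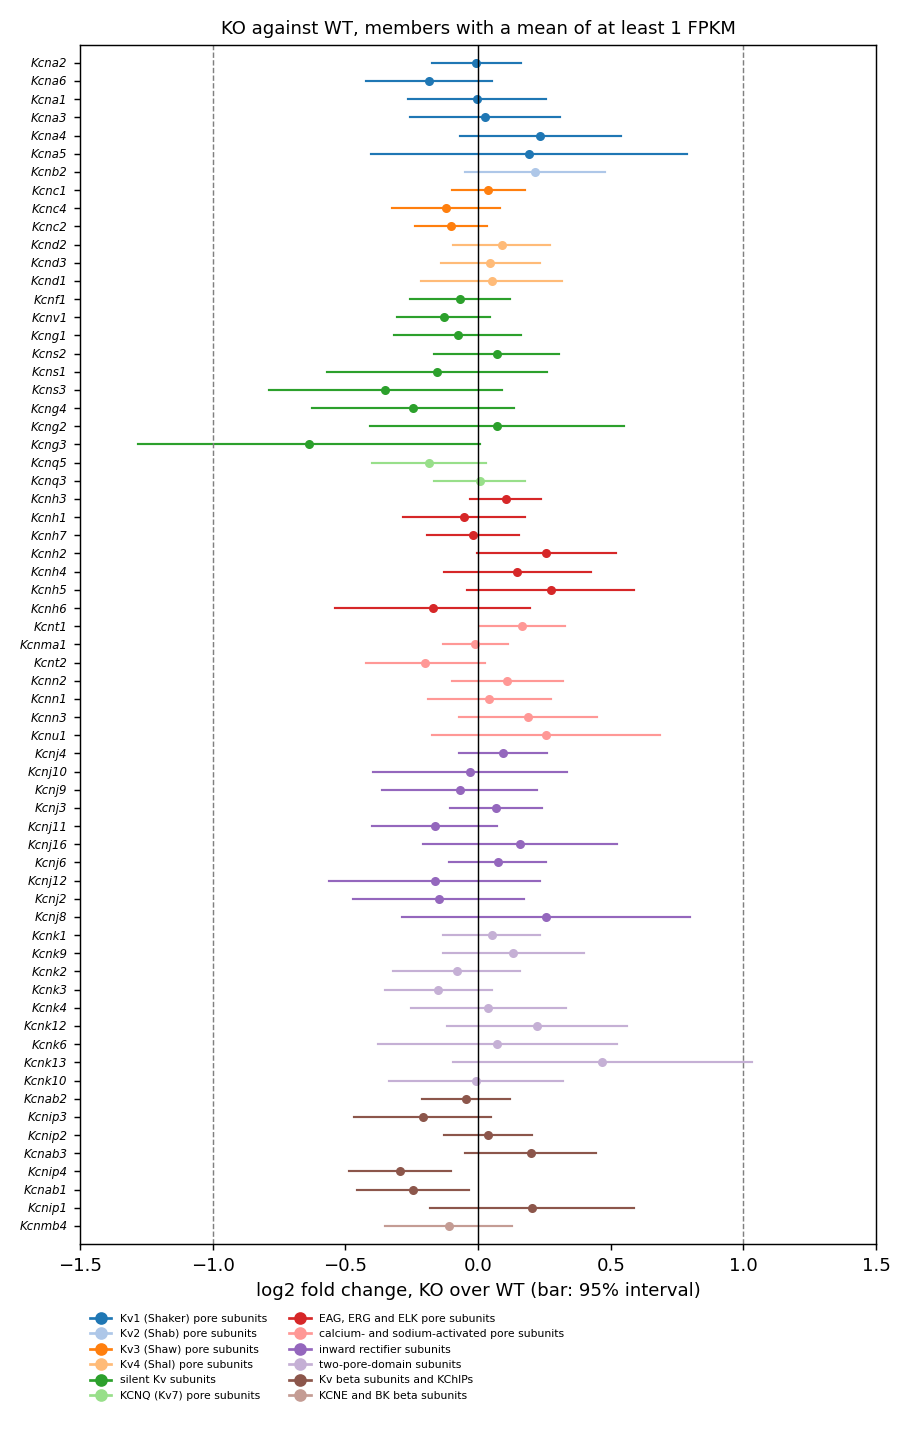
Log2 fold change of KO over WT from limma-voom (points) with its 95% interval (bars) for 65 tested members with a mean of at least 1 FPKM, coloured by class. The dashed lines mark a 2-fold change, and 63 of the 65 intervals lie between them, *Kcng3* and *Kcnk13* being the exceptions.

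*Kcnip4*, a KChIP that modulates Kv4 channels (chr5:48546844-49682249, minus strand, GRCm39), had the lowest p-value of the members. Its level was 13.1, 14 and 14.3 FPKM in KO and 15.4, 19.1 and 16.5 FPKM in WT. All KO libraries lay below all WT libraries. The log2 fold change was -0.29 (SE 0.0883, limma-voom unadjusted p = 0.00601, adjusted p = 0.635), and without WT replicate 2, the highest library, it was -0.21 (unadjusted p = 0.0344). Over the 18 alternative fits it lay from -0.36 to -0.21, with an unadjusted p under 0.05 in all 18 and adjusted p from 0.252 to 0.999.

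*Kcnab1*, a Kv beta subunit that speeds the inactivation of Kv1 channels (chr3:64856617-65285644, plus strand, GRCm39), was at 4.88, 6.31 and 5.92 FPKM in KO and at 6.70, 7.17 and 6.27 FPKM in WT. The lowest library was KO replicate 1, and KO replicate 2 lay just above WT replicate 3. The log2 fold change was -0.25 (SE 0.0963, limma-voom unadjusted p = 0.0253, adjusted p = 0.635). It was -0.13 without KO replicate 1 (unadjusted p = 0.143), -0.25 without WT replicate 1 (unadjusted p = 0.0502) and -0.20 without WT replicate 2 (unadjusted p = 0.0953). The adjusted p was 0.345 to 0.999 over the 18 alternatives.

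*Kcnt1*, the sodium-activated channel gene (chr2:25753746-25808285, plus strand, GRCm39), was at 27.6, 28.7 and 31 FPKM in KO and at 23.7, 26.5 and 27.5 FPKM in WT. The groups did not overlap, but the lowest KO and the highest WT library lay side by side. The log2 fold change was 0.17 (SE 0.0731, limma-voom unadjusted p = 0.0409, adjusted p = 0.635), and the unadjusted p was under 0.05 in 10 of 18 alternatives. It was 0.12 without KO replicate 3 (unadjusted p = 0.175), 0.10 without WT replicate 1 (unadjusted p = 0.179), 0.17 without KO replicate 2 (unadjusted p = 0.0823) and 0.18 without WT replicate 2 (unadjusted p = 0.0544). With the striatal marker level as a covariate it was 0.13 (unadjusted p = 0.124). The adjusted p was 0.355 to 0.999 over the alternatives.

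Its relative *Kcnt2*, which can join *Kcnt1* in 1 channel, was at 4.92, 6.24 and 5.98 FPKM in KO and at 6.02, 6.33 and 7.19 FPKM in WT. The groups overlapped (log2 fold change -0.20, limma-voom unadjusted p = 0.0783, adjusted p = 0.644). The ratio of *Kcnt1* to *Kcnt2* was 5.61, 4.59 and 5.19 in the KO libraries and 3.94, 4.20 and 3.83 in the WT libraries, with no overlap. The ratio of *Kcnq5* to *Kcnq3* was 0.913, 0.945 and 1.03 in the KO libraries and 1.04, 1.16 and 1.08 in the WT libraries, again with no overlap. Of 12 such ratios between partners or relatives, chosen after values had been seen, 4 did not overlap, the others being *Kcnj10* to *Kcnj16* (lower in KO) and *Kcnab2* to *Kcnab1* (higher in KO). For comparison, the levels of single genes did not overlap in 6.72% (KO higher) and 6.29% (KO lower) of all tested genes. Each of the 4 ratios had p = 0.10 in a two-sided exact permutation test (adjusted over the 12 ratios, 0.30), the smallest p that 3 against 3 libraries allow. Since the ratios were picked with values known, and 2 of the 4 hold *Kcnt1* or *Kcnab1*, named for their unadjusted p, these p-values are descriptive only.

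**Figure D4:**
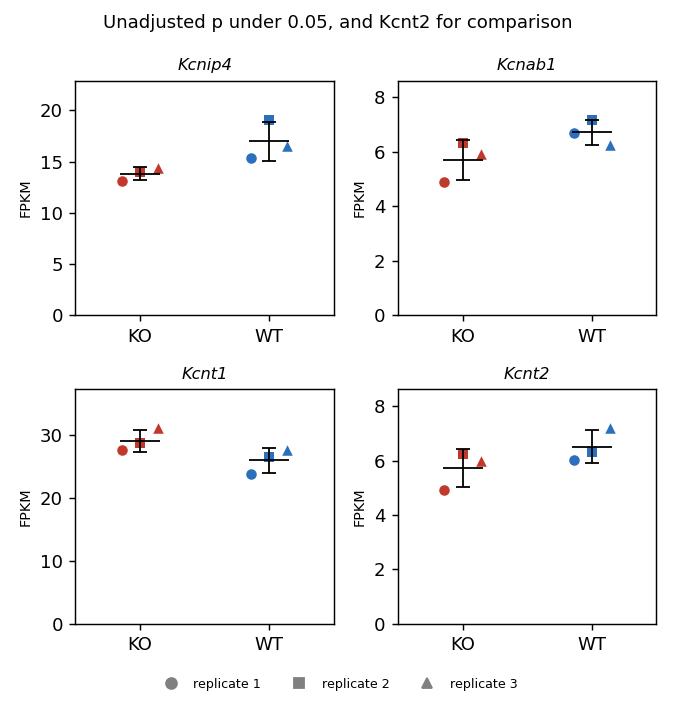
Level in FPKM (vertical axes, from 0) of the 3 members with an unadjusted p under 0.05 and of *Kcnt2*, with 1 point for each library (the marker gives the replicate number) and the mean ± SD of 3 libraries in black. *Kcnip4* and *Kcnt1* show no overlap between the groups, *Kcnab1* and *Kcnt2* do.

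For 7 tested members the ranges of the groups did not overlap. The 3 that were higher in KO were *Kcnt1*, *Kcnh3* and *Kcnh8* (3.85%, all tested genes 6.72%). *Kcnh8* rested on few fragments, 19, 6 and 7 in the KO libraries and 6, 1 and 6 in the WT libraries. The 4 that were lower were *Kcnip4*, *Kcnc2*, *Kcnk3* and *Kcnh6* (5.13%, all tested genes 6.29%). These shares differ from the background by few genes. *Kcnh3* was at 33.8, 34.2 and 34.7 FPKM in KO and 30.8, 31.5 and 33.3 FPKM in WT (log2 fold change 0.10, limma-voom adjusted p = 0.666). *Kcnc2*, the Kv3 gene of inhibitory neurons, was at 14.5, 14.7 and 15.1 FPKM in KO and 15.6, 15.7 and 16.4 FPKM in WT (log2 fold change -0.10, limma-voom adjusted p = 0.679). These separations were small and did not pass the test.

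By class, the median log2 fold change was 0.01 for Kv1, 0.10 for Kv2, -0.08 for Kv3, 0.05 for Kv4, -0.13 for the silent subunits and -0.01 for KCNQ. It was 0.13 for the EAG, ERG and ELK subunits, 0.11 for the calcium- and sodium-activated subunits, 0.02 for the inward rectifiers, 0.07 for K2P, -0.05 for the Kv beta subunits and KChIPs and -0.04 for the KCNE and BK beta subunits, all beside 0.01 over all tested genes. Of all tested genes, 51.9% were above 0. The median of Kv4 turned to -0.014 without WT replicate 3 and to -0.0098 in the 4 libraries numbered 2 and 3. Leaving out 1 library also turned the sign for Kv1 (down to -0.058) and KCNQ (up to 0.030). The same held for the Kv beta and KChIP class (up to 0.0086) and the KCNE and BK beta class (up to 0.091). The median of the inward rectifiers turned to -0.035 with the filterByExpr filter. Of the 12 class sums, only that of K2P did not overlap, at 82.8, 82.0 and 82.3 FPKM in KO and 78.4, 79.6 and 78.6 FPKM in WT. Single genes were separated in this way in 6.72% (KO higher) and 6.29% (KO lower) of all tested genes, and class sums were not tested. The pattern was the same with each of 4 scalings, which share the same counts. The main K2P genes overlapped between the groups: *Kcnk1* was at 36.4, 32.0 and 31.6 FPKM in KO and 35.1, 32.0 and 29.7 FPKM in WT, and *Kcnk9* was at 18.8, 21.8 and 23.8 FPKM in KO and 15.6, 22.2 and 21.3 FPKM in WT.

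The libraries numbered 1, those with *Xist*, differed from the other 4 in many members, in both genotypes. Of the tested members, 11 lay higher (14.1%, all tested genes 8.26%) and 14 lower (17.9%, all tested genes 8.28%) in these 2 libraries than in every other library. Since each group holds 1 such library, this is given as a description, with no test. *Kcnj10* was at 45.6 FPKM in KO replicate 1 and 53.0 in WT replicate 1, and at 30.6 to 35.2 FPKM in the other 4. *Kcnj16*, its astrocyte partner, was at 9.90 and 10.6 FPKM against 6.13 to 8.74. *Kcnip1* was at 4.76 and 4.10 FPKM against 2.83 to 3.45, and *Kcnk13*, a K2P gene of microglia, at 2.24 and 1.61 FPKM against 1.03 to 1.53. The other members that were higher in these libraries were *Kcna5*, *Kcnf1*, *Kcnj8*, *Kcnk1*, *Kcnk6*, *Kcnk10* and *Kcnk15*.

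Members that were lower in the libraries numbered 1 included GIRK, Kv1, KCNQ and K2P subunits of neurons. *Kcnj9* was at 28.5 and 30.3 FPKM against 37.8 to 41.8, *Kcna1* at 12.3 and 11.4 against 14.7 to 16.1, *Kcnq5* at 12.4 and 14.8 against 15.4 to 17.7, and *Kcnk9* at 18.8 and 15.6 against 21.3 to 23.8 FPKM. Others were *Kcna2*, *Kcna3*, *Kcns1*, *Kcng2*, *Kcnq3*, *Kcnh7*, *Kcnma1*, *Kcnj11* and *Kcnmb1*. The gap was slight for *Kcnma1*, at 20.82 and 20.92 against 20.94 to 21.34 FPKM, and *Kcnmb1* had only 10 to 16 fragments in a library. *Kcnj9* (chr1:172148068-172156885) and *Kcnj10* (chr1:172168777-172201652, GRCm39) are neighbours, 11892 base pairs apart on opposite strands, and went opposite ways. Of the 10 astrocyte markers, 6 were also higher in the libraries numbered 1 than in all others, with a summed level of 5386, 4859 and 5328 CPM in the KO libraries and of 5356, 4609 and 5119 CPM in the WT libraries. Of the 10 microglial markers 2 were higher in this way, and the summed neuronal markers ranged from 8350 to 10126 CPM, with the libraries numbered 1 at 8350 and 9537. The list for parvalbumin interneurons (*Pvalb*, *Gad1*, *Gad2*, *Tac1*, *Erbb4* and *Kit*) also holds genes of other GABAergic neurons. It summed to 982 and 733 CPM in the libraries numbered 1, against 559 to 639 CPM in the others (2 of 6 markers higher in this way). Leptomeningeal fibroblast markers summed to 139 and 166 against 88.1 to 128 CPM (3 of 6). Of the excitatory, striatal and oligodendrocyte markers, 0 were higher in this way. The part of cell makeup, of sex-linked expression or of a shared number in these values was not tested.

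**Figure D5:**
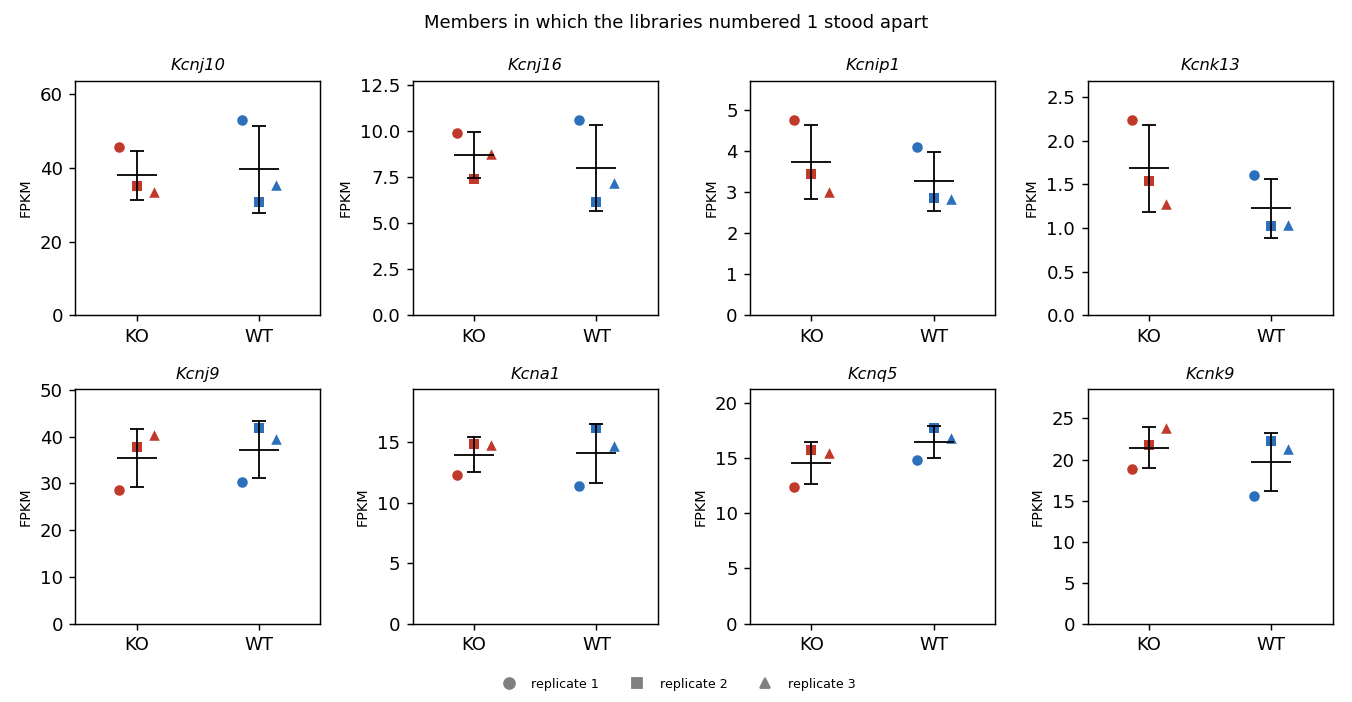
Level in FPKM (vertical axes, from 0) of 8 members in which the libraries numbered 1 (circles) lay above all others (upper row) or below all others (lower row), by group, with the mean ± SD of 3 libraries in black. *Kcnj10* reaches 45.6 and 53.0 FPKM in these libraries and *Kcnj9* falls to 28.5 and 30.3 FPKM.

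With Y-linked expression as a covariate, which takes up the difference of the libraries numbered 1, 12 of 78 members had an unadjusted p under 0.05 (15.4%, all tested genes 10.6%), and no member passed the adjusted threshold (lowest adjusted p = 0.252), which 23 of all tested genes did in this fit. Beside *Kcnip4*, *Kcnab1* and *Kcnt1* these were *Kcnh2*, *Kcnq5*, *Kcnk15*, *Kcnab3*, *Kcnk13*, *Kcnt2*, *Kcng3*, *Kcnip3* and *Kcnh8*. Over all libraries *Kcnk15* had 46 fragments and *Kcnh8* had 45, so their values rest on few counts. *Kcnq5* was at -0.18 in this fit (limma-voom unadjusted p = 0.0126) and *Kcnh2* at 0.25 (unadjusted p = 0.00947). The direction was lower in KO for 6 and higher for 6 of the 12. In WT replicate 1 *Kcnip3*, a KChIP that also acts as a transcription repressor, was at 52.2 FPKM, above the 34.1 to 40.1 FPKM of the other 5 libraries.

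No member linked to a particular cell type passed the adjusted threshold. For fast-spiking interneurons, *Kcnc1* had a log2 fold change of 0.04, *Kcnc2* of -0.10, *Kcna1* of 0.00 and *Kcns3* of -0.35 (limma-voom adjusted p = 0.662 to 0.995). Of the 6 genes in the list for parvalbumin interneurons, some of which other GABAergic neurons share, 4 were above 0, with a median of 0.07 and 1 unadjusted p under 0.05. For astrocytes, *Kcnj10* was at -0.03 and *Kcnj16* at 0.16, and for mural and endothelial cells *Kcnj8* was at 0.26 and *Kcnj2* at -0.15. For microglia, *Kcnk13* was at 0.47 (95% interval -0.09 to 1.03), *Kcnk6* at 0.07 and *Kcna3* at 0.03. Of the members that striatum is rich in, *Kcnab1* was at -0.25, *Kcnh4* at 0.15, *Kcnip2* at 0.04 and *Kcnk2* at -0.08, while all 10 striatal markers themselves had fold changes above 0, with a median of 0.35 and 1 unadjusted p under 0.05. The part of striatal RNA in these values was tested only as a covariate, with which *Kcnab1* was at -0.25 (limma-voom unadjusted p = 0.0453) and *Kcnip4* at -0.29 (unadjusted p = 0.0138).

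Genes that work with the channels but carry other names were read from lists chosen with earlier results of these data known. Of 18 partners, which include the DPP proteins of Kv4 channels, the sulfonylurea receptors of ATP-sensitive channels and the axonal scaffolds of Kv1 channels, 16 were tested, 10 were above 0 and 6 below, with no adjusted call and 2 unadjusted p-values under 0.05 (12.5%, all tested genes 7.82%). *Lrrc55*, a gamma subunit of BK channels, was at 7.58, 5.04 and 4.04 FPKM in KO and 3.73, 3.20 and 4.48 FPKM in WT (log2 fold change 0.52, SE 0.199, limma-voom unadjusted p = 0.0220, adjusted p = 0.635). Its highest library was KO replicate 1, without which the log2 fold change was 0.25 (limma-voom unadjusted p = 0.0907), and the groups overlapped. The unadjusted p was under 0.05 in 12 of 18 alternatives, and over it also without WT replicate 1 (0.0551) and without WT replicate 2 (0.0883). *Abcc9*, the sulfonylurea receptor of mural cells, was at 2.18, 1.65 and 2.06 FPKM in KO and 1.47, 1.51 and 1.66 FPKM in WT (log2 fold change 0.34, SE 0.131, limma-voom unadjusted p = 0.0215, adjusted p = 0.635). Its unadjusted p rose over 0.05 when KO replicate 1 (0.0923) or KO replicate 3 (0.0649) was left out, and likewise for WT replicate 1 (0.0644) and WT replicate 2 (0.0539). *Kcnj8*, its pore partner, was at 1.67, 1.31 and 1.29 FPKM in KO and 1.66, 0.995 and 1.02 FPKM in WT, overlapping. Of the 11 sodium pumps and cation-chloride cotransporters that move potassium across the membrane, 6 were above 0 and 5 below, with no adjusted call and 1 unadjusted p under 0.05 (9.09%, all tested genes 7.82%). This was *Slc12a2* (NKCC1), at 7.19, 6.84 and 6.23 FPKM in KO and 5.95, 4.82 and 6.57 FPKM in WT (log2 fold change 0.23, limma-voom unadjusted p = 0.0455, adjusted p = 0.635). Without WT replicate 2 the log2 fold change was 0.11 (limma-voom unadjusted p = 0.256), the unadjusted p was also over 0.05 when KO replicate 1 (0.122), KO replicate 2 (0.104) or the library labelled WT replicate 1 (0.0556) was left out, and it was under 0.05 in 9 of 18 alternatives.

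*Pla2g4e* lies on chromosome 2, where the nearest member is *Kcnip3*, at a distance of 7.22 Mb. *Kcnip3* was at 36.1, 35.8 and 35.7 FPKM in KO and 52.2, 40.1 and 34.1 FPKM in WT (log2 fold change -0.21, limma-voom unadjusted p = 0.104, adjusted p = 0.658). The KO libraries were nearly equal and the WT libraries spread on both sides of them. *Kcnip1* and *Kcnmb1* overlap on opposite strands of chromosome 11, and counting by strand kept their fragments apart.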

How the data were processed

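Libraries were made from polyadenylated RNA with a kit that keeps the strand (TruSeq Stranded mRNA). Per the labels and file headers, the authors checked reads with FastQC 0.11.8, aligned them with STAR 2.7.9a and counted fragments over exons per gene with featureCounts 1.6.0 (strand option 2, GENCODE M31, GRCm39). The study's methods name an earlier build. The deposited values are raw counts, 1 table per sample, with no normalization. Gene symbols were matched by gene identifier to GENCODE M21 (52073 of 56923 genes).

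The members, classes, markers and partner lists were chosen with earlier results of these data known. Genes with at least 6 fragments in at least 1 library were tested with TMM factors (edgeR 4.0.16), voom and limma 3.58.1 under R 4.3.3, two-sided and without covariates, a filter and tools that the study's methods name. Benjamini-Hochberg adjustment over all 19084 genes and a threshold of 0.05 were chosen here. FPKM is the TMM-scaled CPM per kilobase of the summed exon length in the files, which does not follow the isoforms in use. Scripts were tested on simulated counts. Fragments carry no molecular identifiers, so the counting error excludes amplification, and library totals set the precision of low genes. Alternatives were DESeq2 1.42.0, edgeR's quasi-likelihood test, other scalings, filters and weights, the replicate block, covariates and leaving out libraries. A transcript length in place of the exon length was added after seeing the data. Named genes were *Pla2g4e*, the 3 highest members of each class, members with an unadjusted p under 0.05, cell-linked members, those at the minimum of fragments, and partners with an unadjusted p under 0.05. Other members were named after their values were seen. Some members are not reported here by name, while class sums and counts include them.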

Additional observations from a re-analysis of the deposited data

How the results depend on the processing

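No member passed the adjusted threshold in any of the 18 alternative fits. The 3 members at an unadjusted p under 0.05 (3.85%, all tested genes 7.82%) became 6 with a minimum of 1 fragment (7.32%, all genes 7.06%), 12 with the Y-linked covariate (15.4%, 10.6%), 6 with the striatal covariate (7.69%, 5.30%) and 1 to 10 when 1 library was left out. They were 5 without KO replicate 1 (6.41%, all genes 4.44%), 10 without KO replicate 2 (12.8%, 7.43%), 6 without KO replicate 3 (7.69%, 8.05%), 7 without WT replicate 1 (8.97%, 5.38%), 1 without WT replicate 2 (1.28%, 4.13%) and 7 without WT replicate 3 (8.97%, 11.8%). With the replicate number as a block, 11 members had such a p (14.1%, all tested genes 8.87%) and 0 passed the adjusted threshold. The labels do not say whether the numbers pair the samples. Deviations from the group means correlated at 0.267, 0.059 and -0.020 for numbers 1 to 3, too few values to decide this. Over members, the median log2 fold change was 0.03, and 0.00 without KO replicate 2. Class medians moved for Kv2 to 0.0065 (4 libraries numbered 2 and 3), EAG, ERG and ELK to 0.049 (striatal covariate), calcium- and sodium-activated to 0.048 (the same 4 libraries) and Kir to -0.035 (filterByExpr) and 0.070 (4 libraries). Leaving out 1 library gave -0.058 to 0.065 for Kv1, 0.037 to 0.15 for Kv2, -0.014 (without WT replicate 3) to 0.11 for Kv4, -0.22 (without KO replicate 2) to -0.051 (without KO replicate 1) for the silent class, -0.043 to 0.030 for KCNQ, 0.062 (without WT replicate 1) to 0.16 for EAG, ERG and ELK, -0.12 to -0.016 for Kv3, 0.045 to 0.14 for calcium- and sodium-activated, 0.0061 to 0.085 for Kir, 0.019 to 0.18 for K2P, -0.10 to 0.0086 for Kv beta and KChIP and -0.096 to 0.091 for KCNE and BK beta. The causes were not tested. As median FPKM in place of the sum, Kv1 was at 6.08, Kv2 18.6, Kv3 19.8, Kv4 12.1, silent 3.89, KCNQ 14.7, EAG, ERG and ELK 7.30, calcium- and sodium-activated 4.47, Kir 6.81, K2P 2.65, Kv beta and KChIP 17.1 and KCNE and BK beta 0.427. With transcript length, sums were 93.5 for Kv3, 36.5 for Kv4, 114 for KCNQ, 102 for EAG, ERG and ELK, 109 for calcium- and sodium-activated, 195 for Kir, 90.6 for K2P, 268 for Kv beta and KChIP and 31.6 for KCNE and BK beta, so that the Kv beta and KChIP class exceeded Kir. The highest gene was the same in 12 of 12 classes, but 14 of the 82 members rose by over 1.5 times, up to *Kcnn3* (2.82 to 10.2 FPKM) and *Kcnab1* (6.21 to 21.4 FPKM), and orders within classes turned. The unadjusted p of *Pla2g4e* was over 0.05 without KO replicate 1, WT replicate 2 or WT replicate 3 (0.0923, 0.0557 and 0.0943). Members under 1 FPKM are limited by depth.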
